A study of Mus musculus with 17 samples.

Results

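The genes described here encode the proteins that fill, dock and release synaptic vesicles. They are 36 genes of the 55471 in the count table, taken by name from the gene families of the vesicle membrane, the calcium sensors, the SNARE complex with its complexins, the active zone, the Rab3 GTPases and the vesicular glutamate transporters. All 36 were found in the table and all had counts in every library. Their RNA was measured by RNA-seq of the whole hippocampus of C57BL/6 mice (C57BL/6J in the methods of the study) aged 3 to 6 months, in 17 libraries with 1 animal each. In CBP-ifKO mice, Crebbp is floxed and Camk2a-creERT2 supplies a Cre recombinase that tamoxifen switches on in excitatory neurons of the adult forebrain, so that CBP lacks its lysine acetyltransferase domain in these cells while interneurons and glia keep it. Control mice were littermates, which the methods of the study describe as lacking creERT2 although the labels name the transgene for them as well. Both genotypes received tamoxifen in 5 administrations. Mice of each genotype had 1 of 3 treatments. The Sal groups got saline and no kindling. The PTZ0 groups were kindled, that is, injected repeatedly with the convulsant pentylenetetrazole (PTZ), an antagonist of GABA-A receptors, and their final injection was saline. The final injection of the kindled PTZ45 groups was PTZ at 45 mg/kg. Hippocampi were collected 45 min after the last injection. There were 2 libraries of Control PTZ45 and 3 of every other group, or 8 Control and 9 CBP-ifKO libraries.

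A synaptic vesicle is loaded with transmitter by a transporter in its membrane, tethered and docked at the active zone by Rab3, RIM and Munc13 proteins, and held ready by a partly assembled SNARE complex that complexins bind. Calcium entering the terminal is sensed by synaptotagmins, and the SNARE proteins then pull the vesicle and plasma membranes together. Most of these genes are used by neurons in general, so in the hippocampus their RNA comes from pyramidal and granule cells, where creERT2 is active, and from interneurons, where it is not. CBP is a coactivator that CREB recruits to cyclic AMP response elements (CREs) in promoters.

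The promoter sequences of 4 members that were lower in CBP-ifKO mice are printed here as examples, all of them with GC boxes, which several other lower members lack. Each line gives the 250 bases before the RefSeq transcription start on build GRCm38.p6, written 5′ to 3′ on the strand of the gene. Capitals mark the GC box GGGCGG or its reverse complement CCGCCC, a motif that Sp1 family proteins bind, and the CRE core TGACG or its reverse complement CGTCA, and the motifs may share bases.
Syn2, chr6:115134652-115134901, plus strand: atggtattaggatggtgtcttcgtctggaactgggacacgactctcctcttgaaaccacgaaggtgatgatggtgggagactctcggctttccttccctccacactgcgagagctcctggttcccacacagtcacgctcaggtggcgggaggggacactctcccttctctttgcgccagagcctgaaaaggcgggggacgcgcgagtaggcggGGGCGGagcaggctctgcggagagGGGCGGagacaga
Sv2c, chr13:96132578-96132827, minus strand: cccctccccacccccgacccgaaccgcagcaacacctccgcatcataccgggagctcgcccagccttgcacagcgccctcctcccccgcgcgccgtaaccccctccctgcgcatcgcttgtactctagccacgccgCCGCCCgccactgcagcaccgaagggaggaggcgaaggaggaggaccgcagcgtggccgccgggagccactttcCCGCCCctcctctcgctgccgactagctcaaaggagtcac
Unc13a, chr8:71671758-71672007, minus strand: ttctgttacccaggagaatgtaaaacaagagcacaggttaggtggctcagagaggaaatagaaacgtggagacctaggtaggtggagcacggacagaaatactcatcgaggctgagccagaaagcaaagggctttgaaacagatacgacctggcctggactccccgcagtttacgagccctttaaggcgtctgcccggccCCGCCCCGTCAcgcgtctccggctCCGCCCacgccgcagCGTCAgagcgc
Rims3, chr4:120854549-120854798, plus strand: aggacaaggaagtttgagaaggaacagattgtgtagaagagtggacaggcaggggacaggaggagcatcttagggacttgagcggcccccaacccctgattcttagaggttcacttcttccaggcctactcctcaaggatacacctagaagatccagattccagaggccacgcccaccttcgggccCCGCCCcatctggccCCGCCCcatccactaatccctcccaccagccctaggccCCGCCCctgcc
The Sv2c window had 70.8% G and C, against a median of 52.4% over the 32851 windows of all genes, and the windows of Syn2, Rims3 and Unc13a had 61.2%, 59.6% and 58.0%. A second Syn2 window had 50.4% and no GC box. Other lower members were below that median: the 4 windows of Sv2b had 32.8% to 48.8% and no GC box, that of Cplx2 had 50.8% and no GC box, and those of Rab3c, Vamp1 and Syt11 had 47.6%, 50.4% and 51.2%. GC boxes were found in all 4 printed windows, in 20 of the 32 windows of the 25 members that have one in the RefSeq table, and in 32.7% of all windows. The CRE core was found on either strand in 6 of the 32 member windows, those of Syn1, Stx1a, Unc13a, Rab3a, Rab3b and Slc17a6, and in 17.8% of all windows. The complete palindrome TGACGTCA, which holds the core on both strands, was found in 1 member window, that of Syn1, and in 1.55% of all windows. Among these 6 genes, Stx1a and Unc13a were lower in CBP-ifKO mice, as described below, and Syn1, Rab3a, Rab3b and Slc17a6 did not pass the test. These matches describe the letters of the windows and do not show binding.

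The libraries held 5831992 to 18735643 counts, with both of these extremes in CBP-ifKO Sal. Crebbp checked the labels: its lowest Control library had 1824 normalized counts and its highest CBP-ifKO library 1337, where normalized counts are counts divided by the DESeq2 size factor of the library. Sequencing lane followed genotype within each treatment. Control Sal and Control PTZ0 were in lane 3, Control PTZ45 and CBP-ifKO Sal in lane 4, and both remaining CBP-ifKO groups in lane 5, so lane and genotype cannot be told apart within a treatment. Of the 6 groups, 5 each held 1 library with choroid plexus tissue, where the summed normalized count of choroid plexus markers was 11133 to 45577 against at most 1275 in the other 12.

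In Control hippocampus the members covered a wide range of RNA levels per kilobase of exon. Snap25, the plasma membrane SNARE, was highest with 2791 ± 101 normalized counts per kilobase (SD, n = 8). Complexin 2 (Cplx2, 2364 ± 104) and the fast calcium sensor Syt1 (2332 ± 131) came next and their ranges overlapped each other but not that of Snap25. Rab3a, the main Rab3 of the brain, had 1529 ± 49.2. Within families a single gene often dominated. Among the vesicular glutamate transporters, Slc17a7 (VGLUT1) had 1185 ± 102 and Slc17a6 (VGLUT2) 68.8 ± 14.5. Of the synapsins, Syn2 had 1113 ± 55.6, Syn1 282 ± 48.1 and Syn3 19.1 ± 1.59. The SV2 glycoproteins Sv2b (1008 ± 39.9) and Sv2a (980.0 ± 34.3) had overlapping ranges, whereas Sv2c had 38.3 ± 3.41. Cplx3, known from retinal ribbon synapses and deep cortical neurons, was the lowest member with 13.6 ± 3.88 and overlapped Doc2a, the next above it. Of the 35 steps in this order, the ranges of neighbouring genes were separate at 8, after Snap25, Syt1, Syt11, Sv2a, Rims2, Syt17, Unc13c and Sv2c.

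The comparison of genotypes over all treatments asked which of these genes depend on CBP in the adult hippocampus. The genotypes were matched in their injections only. In the study all control mice came to have seizures during kindling, whereas no CBP-ifKO mouse entered the stage of progressive seizures. The seizures of each mouse are not part of the count table, and in PTZ0 and PTZ45 mice genotype cannot be told apart from seizure history. With treatment as a term in DESeq2, 18 of the 36 members were lower in CBP-ifKO mice at an adjusted p under 0.05 and 0 were higher. Over all 18682 genes tested, 11.5% were lower and 7.76% higher. The members are well expressed genes, 34 of them averaging 100 normalized counts or more, and among the 10852 tested genes at that level 16.6% were lower and 10.6% higher. The members' median log2 fold change was −0.16 against 0.01 over all genes tested, and 32 of the 36 were below 0. The losses were small: the 18 genes kept between 62.0% (Sv2c) and 92.2% (Syt1) of their Control level. In 6 members, Syn2, Sv2b, Sv2c, Cplx2, Rims1 and Rims3, every CBP-ifKO library was below every Control library, an arrangement found in 2.16% of all genes tested. Of the 18 genes 1 was still called with lane as a term, and 12 without the libraries with choroid plexus tissue, as described below. In bulk tissue, fewer cells of a type and less RNA per cell cannot be told apart.

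**Figure D1:**
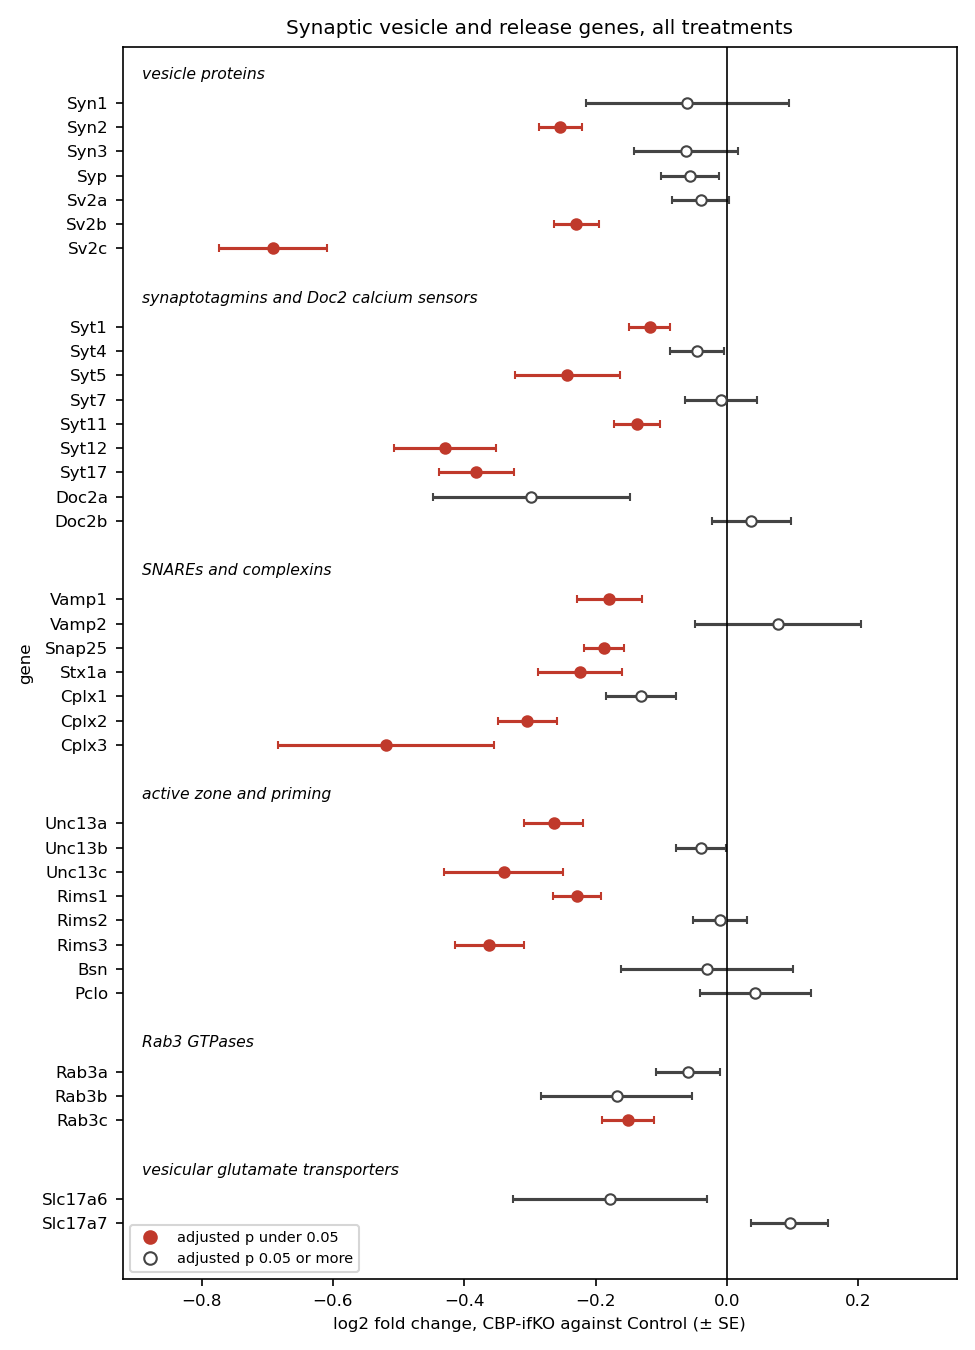
Log2 fold change of each of the 36 genes in CBP-ifKO against Control over all treatments, with bars of 1 standard error, grouped by role. Filled red points have an adjusted p under 0.05: all 18 lie below 0, from −0.12 for Syt1 to −0.69 for Sv2c.

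Of the 7 vesicle proteins, 3 were lower and the median log2 fold change was −0.06. Sv2c, a vesicle glycoprotein known as a receptor of botulinum neurotoxin A, showed the largest change of the 36 members. Its level was 337 to 428 normalized counts in Control (median 361) and 186 to 293 in CBP-ifKO (median 219.9), so the genotypes were well separated. This was a log2 fold change of −0.69 (SE 0.08, 95% interval −0.85 to −0.53, adjusted p = 6.91e-15). Syn2, a synapsin that tethers vesicles in the reserve pool, had 7391 to 8452 normalized counts in Control (median 7778) and 6064 to 6967 in CBP-ifKO (median 6525), with a change of −0.25 on the log2 scale (SE 0.03, adjusted p = 1.61e-12). Sv2b had 8001 to 8883 (median 8474) and 6608 to 7924 (median 7298), with a change of −0.23 on the log2 scale (SE 0.03, adjusted p = 3.48e-09). For Sv2b the highest CBP-ifKO and the lowest Control libraries nearly met, whereas for Syn2 they did not. The closest relatives of these genes did not pass the test. Sv2a, the binding site of the antiseizure drug levetiracetam, had 4241 to 4779 normalized counts in Control and 3773 to 4820.1 in CBP-ifKO (log2 fold change −0.04, 95% interval −0.12 to 0.04). The intervals were −0.36 to 0.24 for Syn1, −0.22 to 0.09 for Syn3 and −0.14 to 0.03 for Syp, the abundant vesicle protein synaptophysin. A loss as large as that of Sv2c, the largest of the members, lies outside all 4 of these intervals. The Syn1 interval holds the changes of Syn2 (−0.25) and Sv2b (−0.23), so a loss of that size in Syn1 is not excluded.

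**Figure D2:**
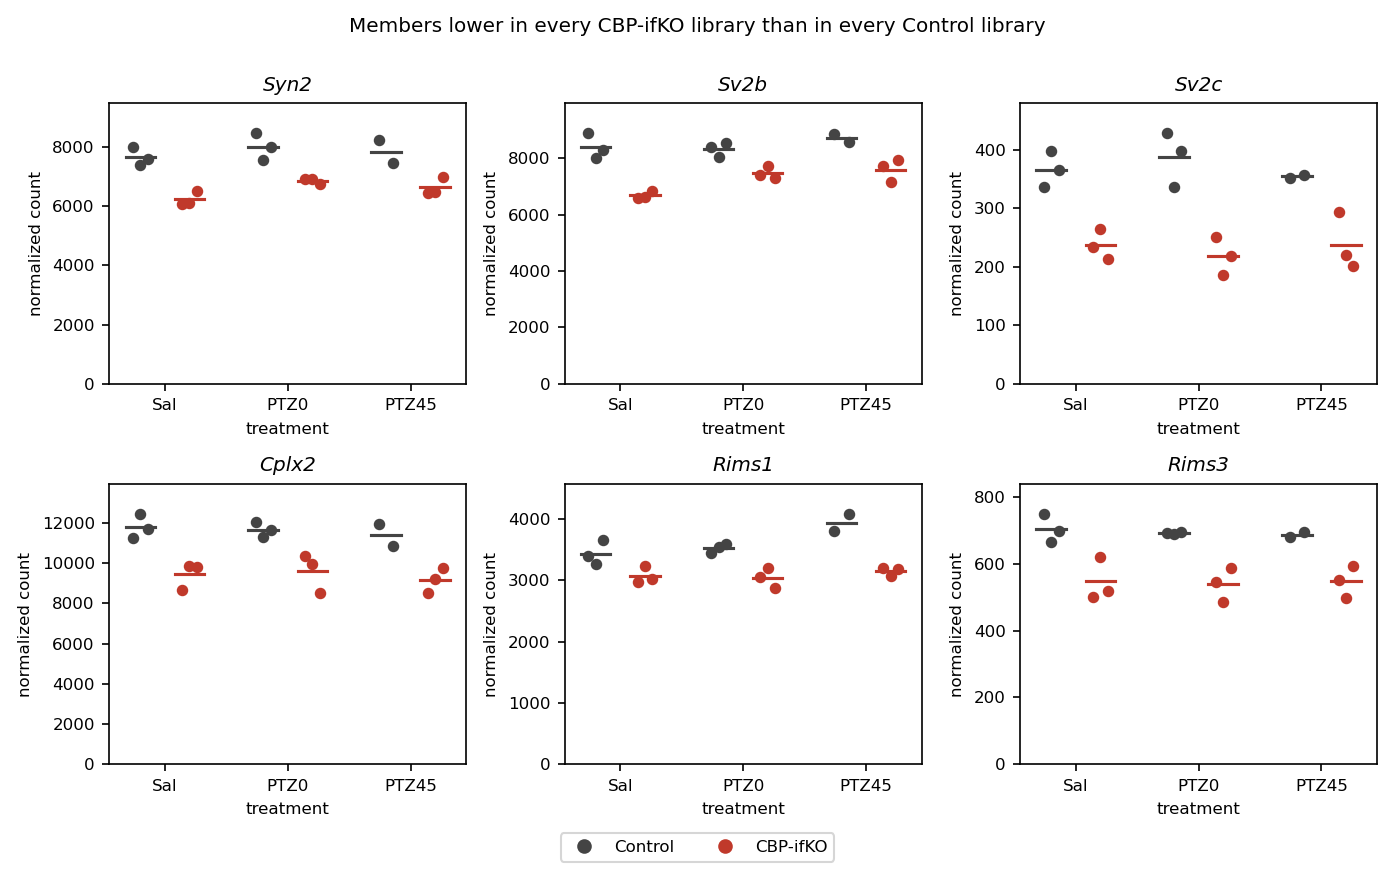
Normalized counts in each library of the 6 members whose CBP-ifKO libraries (red) were all below their Control libraries (dark grey), by treatment. Each point is 1 animal and each line a group mean, on axes that start at 0. In Sv2c the highest CBP-ifKO library (293) lies below the lowest Control library (337).

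Of the 9 synaptotagmins and Doc2 genes, 5 were lower and the median was −0.14. Syt12 and Syt17, synaptotagmins that do not bind calcium, changed most. Syt17 had 701 to 903 normalized counts in Control (median 831) and 567 to 703 in CBP-ifKO (median 638), with only the edges of the genotypes overlapping (log2 fold change −0.38, SE 0.06, adjusted p = 2.05e-09). Syt12 had 184 to 247 (median 209) and 137 to 197 (median 151), and changed by −0.43 on the log2 scale (SE 0.08, adjusted p = 1.05e-06), and 1 CBP-ifKO library of 197 reached into the Control range. The calcium sensor of fast release, Syt1, was lower by much less, from 18152 to 21127 (median 19035) to 16948 to 19047 (median 18136), with broad overlap (log2 fold change −0.12, SE 0.03, adjusted p = 0.00168). Syt11, another synaptotagmin without calcium binding, had 7265 to 7875 in Control and 6217 to 7684 in CBP-ifKO (log2 fold change −0.14, SE 0.04, adjusted p = 0.00115). Syt5 had 802 to 1046 and 661 to 984 (log2 fold change −0.24, SE 0.08, adjusted p = 0.0159). The other 4 genes did not pass the test. Among them, Syt7, the sensor of asynchronous release, had a log2 fold change of −0.01 (95% interval −0.12 to 0.10) and Syt4 one of −0.05 (−0.13 to 0.03). Of the Doc2 genes, high-affinity calcium sensors, Doc2b had 0.04 (−0.08 to 0.15), and Doc2a, with only 29.4 to 60.6 normalized counts, had −0.30 (−0.59 to −0.0036) at an adjusted p of 0.161.

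Of the 7 SNARE and complexin genes, 5 were lower and the median was −0.19, with members from all 3 SNARE families. Snap25 had 18109.8 to 20035 normalized counts in Control (median 18803) and 15385 to 18563 in CBP-ifKO (median 16614). A single CBP-ifKO library, of PTZ45, reached the Control range, and the change on the log2 scale was −0.19 (SE 0.03, adjusted p = 5.51e-08). Its plasma membrane partner Stx1a had 614 to 709.8 and 470.2 to 633 (log2 fold change −0.22, SE 0.06, adjusted p = 0.00444). Of the vesicle SNAREs, Vamp1 had 722 to 887 and 642 to 791 (log2 fold change −0.18, SE 0.05, adjusted p = 0.00309), while the more abundant Vamp2 did not pass the test (0.08, 95% interval −0.17 to 0.32). Cplx2, a complexin that clamps and then promotes fusion, was separate between genotypes, with 10839 to 12459 normalized counts in Control (median 11668) and 8517 to 10377 in CBP-ifKO (median 9743). It changed by −0.30 on the log2 scale (SE 0.04, adjusted p = 4.7e-10). Cplx3 had 30.5 to 65.2 and 24.4 to 33.6 (log2 fold change −0.52, SE 0.16, adjusted p = 0.0123). This call rests on few counts: without Control PTZ45 replicate 2, the library with the most Cplx3, its adjusted p was 0.0821. Cplx1 had 2640 to 3026 and 2262 to 2879 (log2 fold change −0.13, SE 0.05), a difference with an adjusted p of 0.0674.

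Of the 8 active zone and priming genes, 4 were lower and the median was −0.13. Rims3, a short RIM protein, had 666 to 749 normalized counts in Control (median 693) and 484 to 620.4 in CBP-ifKO (median 545), with no overlap (log2 fold change −0.36, SE 0.05, adjusted p = 3.5e-10). Rims1, the scaffold that links Rab3 vesicles to calcium channels, had 3266 to 4084 (median 3569.5) and 2867 to 3237 (median 3069.9), with no overlap (log2 fold change −0.23, SE 0.04, adjusted p = 1.45e-08). Rims2 overlapped throughout (2081 to 2678 and 2142 to 2517, log2 fold change −0.01, 95% interval −0.09 to 0.07). The Munc13 priming factors divided in the same way. Unc13a, the main isoform of excitatory synapses, had 4221 to 4948 in Control (median 4543) and 3571 to 4253 in CBP-ifKO (median 3659), a log2 change of −0.26 (SE 0.04, adjusted p = 1.18e-07). Unc13c, which is known mainly from the cerebellum, had 400.2 to 645 and 319 to 471 (−0.34, SE 0.09, adjusted p = 0.00206). Unc13b had 1690.5 to 1955 and 1685 to 1892, close to complete overlap (−0.04, 95% interval −0.11 to 0.04). Bassoon (Bsn) and Piccolo (Pclo), the giant scaffold proteins of the active zone, did not pass the test, with intervals of −0.29 to 0.23 and −0.12 to 0.21.

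Of the 3 Rab3 GTPases, Rab3c was lower, from 7333 to 8989 normalized counts in Control (median 7762) to 6264 to 7797 in CBP-ifKO (median 7142), a log2 change of −0.15 (SE 0.04, adjusted p = 0.00172). Rab3a, with 3272 to 3539.8 and 2890.3 to 3635, had an interval of −0.16 to 0.04, and Rab3b one of −0.39 to 0.06. Neither of the glutamate transporters passed the test. Slc17a7, the transporter of hippocampal excitatory terminals, had 5429 to 6876 normalized counts in Control and 5888 to 8056 in CBP-ifKO, the highest fold change of the 36 members (0.10, 95% interval −0.02 to 0.21). It was called higher once counts were corrected for the GC content of genes (0.14, adjusted p = 0.0244).

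The strand setting of the authors' counting was not stated, and 15 of the 36 members share exonic bases with another gene, 14 of them only with genes on the opposite strand and Bsn with Gm47303 on its own strand. Of the 18 lower genes, 4 are among these, Syn2 (Timp4), Sv2b (1500012K07Rik), Syt12 (A930001C03Rik) and Unc13a (Colgalt1), so reads of the partner genes could be part of their counts.

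The same members were then compared within each treatment, with fewer libraries. In Sal mice 6 of 36 were lower in CBP-ifKO (Syn2, Sv2b, Sv2c, Syt17, Cplx2 and Rims3), against 1.77% of all genes tested. In PTZ0 mice 12 of the 34 members tested were lower (Syn2, Sv2b, Sv2c, Syt5, Syt17, Vamp1, Snap25, Cplx2, Unc13a, Unc13c, Rims1 and Rims3), against 5.25%. In PTZ45 mice 4 were lower (Sv2c, Cplx2, Unc13a and Rims1), against 2.82%. No member was called higher by DESeq2 in any treatment, where 0.267%, 1.43% and 0.25% of all genes tested were. Under some alternatives Vamp2 and Pclo were. In PTZ0 Vamp2 was called higher with edgeR (log2 fold change 0.25, adjusted p = 0.00418), after GC correction (0.28, adjusted p = 0.0358) and without CBP-ifKO PTZ0 replicate 2 (0.35, adjusted p = 0.000498), where Pclo was too (0.20, adjusted p = 0.00774). In Sal both were called higher without CBP-ifKO Sal replicate 3 (Vamp2 0.36, adjusted p = 0.0479, and Pclo 0.29, adjusted p = 0.0439). The median log2 fold changes were −0.12, −0.15 and −0.20, and 24 of the 36 members were below 0 in each of the 3. Among these 24 are all 18 genes called over all treatments, which were called on these same libraries. CBP-ifKO libraries lay wholly below Control libraries in 13 members in Sal, 17 in PTZ0 and 18 in PTZ45, against 11.1%, 15.2% and 18.3% of all genes tested.

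Sv2c and Cplx2 were the 2 members that passed the test in all 3 treatments. The Sv2c counts were 337, 398 and 365 in Control Sal and 234, 266 and 214 in CBP-ifKO Sal (log2 fold change −0.64, SE 0.14, adjusted p = 0.000623). They were 428, 337 and 399 against 251, 186 and 219 in PTZ0 (−0.84, SE 0.14, adjusted p = 2.19e-07), and 353 and 357 against 293, 219.9 and 202 in PTZ45 (−0.57, SE 0.18, adjusted p = 0.0445). The Control levels of Sv2c thus had much the same range in each treatment, and the CBP-ifKO levels a lower one. Cplx2 had 11251, 12459 and 11700.2 in Control Sal against 8684, 9846 and 9819.6 in CBP-ifKO Sal (adjusted p = 0.00348). It had 12062, 11307 and 11635 against 10377, 9976 and 8517 in PTZ0 (adjusted p = 0.00199) and 11932 and 10839 against 8545, 9206 and 9743 in PTZ45 (adjusted p = 0.0138). Its log2 fold changes were −0.32, −0.28 and −0.31 (SE 0.08, 0.07 and 0.09).

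Other members passed in some treatments. Sv2b was lower in Sal (−0.33, SE 0.07, adjusted p = 0.000726) and in PTZ0 (−0.16, SE 0.05, adjusted p = 0.0465). Syn2 (−0.30 and −0.22), Syt17 (−0.44 and −0.34) and Rims3 (−0.39 and −0.36) were also lower in Sal and PTZ0, at adjusted p of 0.00235 to 0.0328. In PTZ0 Syt5 (−0.36, adjusted p = 0.0146), Vamp1 (−0.28, adjusted p = 0.0349) and Snap25 (−0.20, adjusted p = 0.00625) passed too. The least stable of these calls were Sv2b in PTZ0, lost in 11 of 13 alternatives, and Rims3 in Sal and Vamp1 in PTZ0, each lost in 9 of 13. Unc13a (−0.32, SE 0.08, adjusted p = 0.00257) and Rims1 (−0.32, SE 0.08, adjusted p = 0.00547) were lower in PTZ45, calls each lost in 5 of 12 alternatives. Both were also called lower in PTZ0, and each of those calls was lost in 7 of 13 alternatives. Over these alternatives the PTZ0 change was −0.31 to −0.18 for Unc13a and −0.26 to −0.17 for Rims1. Unc13c had its largest difference in PTZ0, where 468, 603 and 468 normalized counts in Control stood against 319, 337 and 379 in CBP-ifKO (−0.56, SE 0.12, adjusted p = 0.000286). Passing in 1 treatment and not in another is no sign that the genotype effect differs between them. In the test of that difference for PTZ45 against Sal, the interaction of genotype and treatment, 0 of 36 members passed in DESeq2 (1 at an unadjusted p under 0.05) and 0 in edgeR (5 at an unadjusted p under 0.05), with 0.329% of all genes tested called by DESeq2. The counts of calls within treatments moved with single libraries. In Sal 2 members were called without Control Sal replicate 2 and 3 without Control Sal replicate 3. In PTZ0 the counts were 2, 5 and 4 without Control PTZ0 replicates 1, 2 and 3, and 5 without CBP-ifKO PTZ0 replicate 3. In PTZ45 they were 0 and 2 without Control PTZ45 replicates 1 and 2, and 2 and 0 without CBP-ifKO PTZ45 replicates 1 and 2.

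Lane 4 held libraries of both genotypes, though of different treatments. Comparing CBP-ifKO Sal with Control PTZ45 within this lane, 7 members were lower (Syn2, Sv2b, Sv2c, Syt4, Snap25, Rims1 and Rab3c), 0 were higher, and of all genes tested 3.05% were lower and 0.355% higher. Of the 36 members 31 were below 0, among them all 18 called over all treatments, but these libraries were part of the fit that called the 18. Sv2c changed by −0.60 (SE 0.17, adjusted p = 0.0166) and Sv2b by −0.38 on the log2 scale (SE 0.08, adjusted p = 0.000415). No member passed without Control PTZ45 replicate 1, none without replicate 2, and 2 passed without either of CBP-ifKO Sal replicates 1 and 2. The 2 groups also differ in treatment, and its part in these calls was not tested. Syt4, which passed here, was also called higher in the same Control PTZ45 libraries against Control Sal, a call lost in 9 of 12 alternatives. With lane as a term in the fit of all libraries, the median SE of the members went from 0.05 to 0.17 and 1 member was called, Sv2b (−0.37, adjusted p = 0.0274), among 131 genes in all. In that fit 15 of the 18 genes were still below 0, 9 of them at an unadjusted p under 0.05, while Syt5 (0.0050), Vamp1 (0.039) and Unc13c (0.11) were above 0. Sv2c, with the largest change over all treatments, went from −0.69 to −0.38 (SE 0.25, adjusted p = 0.978), and Snap25 (−0.16) and Syt11 (−0.10) also came closer to 0. Sv2b, Rab3c (−0.29), Syt1 (−0.19) and Cplx3 (−0.80) were further below 0 than without the term. So were Syn2 (−0.31), Syt12 (−0.44), Syt17 (−0.45), Stx1a (−0.33), Cplx2 (−0.36), Unc13a (−0.33) and Rims1 (−0.28).

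Without the 5 libraries with choroid plexus tissue, 12 of the 18 genes were still called over all treatments. The 6 that were not are Syt1 (log2 fold change −0.09), Syt5 (−0.12, from −0.24 with all libraries), Syt11 (−0.10), Vamp1 (−0.14), Stx1a (−0.16) and Cplx3 (−0.44). Within treatments far fewer calls were left in that set of libraries, 0 in Sal, 1 in PTZ0 and 0 in PTZ45, with 2 libraries left in each group. Over all treatments, leaving out any single library kept the 18 calls, apart from Cplx3.

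Members of 1 family often stood apart in this comparison, and the log2 ratio of paralogues was examined because it does not depend on how a library was scaled. The 21 pairs in 9 families, without the synaptotagmins, were chosen after the values had been seen. An exact permutation of the genotype labels within treatments was run on them, and 9 pairs had an adjusted p under 0.05. Those 9 are given first. Because the pairs were chosen on these same values, that test is no support for them, and the differences between genotypes are a description only. Each difference is CBP-ifKO minus Control, averaged over the 3 treatments. The log2 ratio of Sv2a to Sv2c was 3.61 ± 0.14 in Control and 4.26 ± 0.25 in CBP-ifKO (SD, n = 8 and 9), a difference of 0.64. It was 0.54 within lane 4 and 0.59 to 0.70 without any single library. For Sv2b to Sv2c the difference was 0.45, and 0.20 within lane 4, and for Sv2a to Sv2b it was 0.19, and 0.34 within lane 4. The ratio of Rims1 to Rims2 went from 0.65 ± 0.07 to 0.43 ± 0.06 on the log2 scale, a difference of −0.22, and −0.20 within lane 4. Rims2 to Rims3 went from 1.72 ± 0.11 to 2.08 ± 0.13, a difference of 0.34 that was 0.18 within lane 4. Cplx1 to Cplx2 went from −2.05 ± 0.08 to −1.87 ± 0.08 (0.17, and 0.18 within lane 4), and Unc13a to Unc13b from 1.33 ± 0.12 to 1.10 ± 0.11 (−0.22, and −0.10 within lane 4). The differences of Sv2b to Sv2c, Rims2 to Rims3 and Unc13a to Unc13b were thus much smaller within lane 4, and so was that of Doc2a to Doc2b (−0.30, and −0.14 within lane 4), while that of Unc13b to Unc13c was not (0.28 and 0.29). The remaining pairs did not pass. For Syn1 to Syn2 the difference of 0.16 was smaller than the SD of the ratio in either genotype (0.25 and 0.40). Cplx1 to Cplx3 had 0.36 (0.75 within lane 4), Cplx2 to Cplx3 0.19 (0.57) and Syn2 to Syn3 −0.19 (−0.33). Slc17a6 to Slc17a7 had −0.26 (−0.21 within lane 4), and Vamp1 to Vamp2 −0.22 (0.08). The Rab3 pairs, Syn1 to Syn3, Unc13a to Unc13c and Rims1 to Rims3 had −0.06 to 0.15.

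The PTZ comparisons asked whether kindling or an acute seizure challenge changes the release machinery. With all libraries of a comparison and no replicate block, DESeq2 called few members, each of them higher and in Control mice. Against Control Sal, 1 member rose in Control PTZ45, Syt4, with 0.939% of all genes tested called higher. Against Control PTZ0, 3 rose in the same Control PTZ45 libraries, Syt4, Vamp2 and Pclo, with 1.18% of all genes tested called higher. These comparisons share the Control PTZ45 libraries. Syt4, a synaptotagmin of dense-core vesicles and an activity-induced gene, had 2226, 2075 and 2143 normalized counts in Control Sal, 2232, 2204 and 2267 in PTZ0, and 2661 and 2621 in PTZ45. Both PTZ45 libraries were above all 6 others. On the log2 scale it rose by 0.29 against Sal (SE 0.08, adjusted p = 0.036) and by 0.24 against PTZ0 (SE 0.07, adjusted p = 0.0355). The CBP-ifKO libraries had 2168, 2083 and 2055 in Sal, 2106, 2442 and 2129.8 in PTZ0, and 2626, 2205 and 2489 in PTZ45, where the PTZ45 libraries were again above all Sal libraries. That difference (0.21, SE 0.09) did not pass (adjusted p = 0.844), and the test of a genotype difference in the response gave −0.08 (95% interval −0.31 to 0.14, adjusted p = 1.0), so the data do not show that the response of Syt4 differs between genotypes.

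Pclo had 6587, 6778 and 6949.8 normalized counts in Control PTZ0 and 8465 and 7993 in Control PTZ45 (log2 fold change 0.28, SE 0.06, adjusted p = 0.000452), but its Control Sal libraries spread from 5947 to 7563. Vamp2 had 1979, 2017 and 1935 in Control PTZ0 and 2865 and 2285 in Control PTZ45 (0.38, SE 0.09, adjusted p = 0.0028), while 1 Control Sal library had 2405. The 3 Control PTZ0 libraries were thus closer together than the libraries of any other group for both genes. Lane separates these groups too, since Control PTZ45 was in lane 4 and both other Control groups in lane 3, and its part in the result was not tested. The calls against PTZ0 were lost, together or in part, without single libraries: 0 members were called without Control PTZ0 replicate 1, 0 without replicate 2 and 1 without replicate 3. Without Control PTZ45 replicate 1, Slc17a7 was called lower (log2 fold change −0.26, adjusted p = 0.00604). The Syt4 call against PTZ0 was lost without any 1 of the 5 libraries, and that against Sal without Control Sal replicates 2 or 3 or either Control PTZ45 replicate (adjusted p up to 0.832) and after GC correction (log2 fold change 0.19).

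In CBP-ifKO mice 0 members passed for PTZ45 against Sal (4 at an unadjusted p under 0.05 in DESeq2; edgeR called 1, Bsn, as lower, and so did DESeq2 with the replicate block, with a log2 fold change of −0.42 and an adjusted p of 2.75e-07, a call that the block with GC correction lost) and 0 for PTZ45 against PTZ0, both in lane 5 (2 at an unadjusted p under 0.05; edgeR again called Bsn). For PTZ0 against Sal, 0 members passed in Control, where both groups were in lane 3 (1 at an unadjusted p under 0.05, 0 in edgeR), and 0 in CBP-ifKO (3 at an unadjusted p under 0.05, 0 in edgeR). Of all genes tested, DESeq2 called 0.294%, 0.0872%, 0.00843% and 0.0112% in these 4 comparisons.

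Some members varied between animals of 1 group far more than others. The SD within groups on the log2 scale was 0.34 for Syn1, 0.32 for Slc17a6, 0.29 for Bsn, 0.28 for Rab3b, 0.25 for Vamp2 and 0.21 for Pclo, against 0.05 for Unc13b and Syt1. Syn1, Vamp2, Bsn and Pclo, grouped after their values were seen, had their lowest value in the same library in 5 of the 6 groups: Control Sal replicate 1, Control PTZ45 replicate 2, CBP-ifKO Sal replicate 3, CBP-ifKO PTZ0 replicate 2 and CBP-ifKO PTZ45 replicate 3. Slc17a6 was above its group mean in all 5 of these libraries, by 0.10 to 0.45 on the log2 scale. Rab3b was above its group mean in them too, by 0.13 to 0.41, except in Control PTZ45 replicate 2 (−0.01). Syn1 had 1028 and 1164 normalized counts in the other CBP-ifKO Sal libraries and 679.9 in replicate 3, and 929 and 953 against 573 in CBP-ifKO PTZ45. Bsn had 5433 and 5349 against 3872, and 4070 and 4243 against 2751, in the same libraries. These are also members whose genotype intervals were wide, so their failure to pass does not show that they were unchanged. What sets these libraries apart was not tested.

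**Figure D3:**
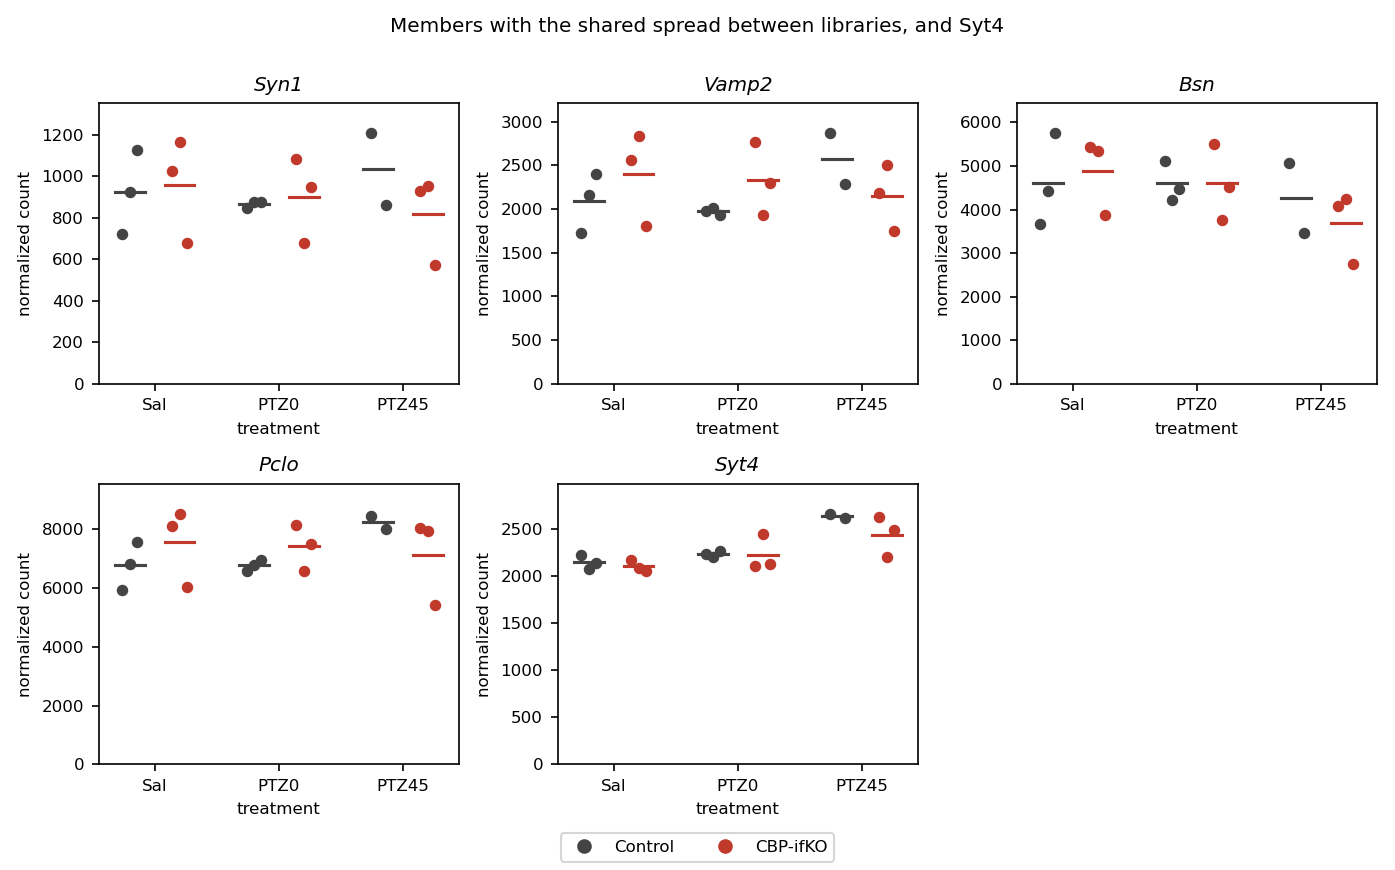
Normalized counts in each library of Syn1, Vamp2, Bsn and Pclo, which spread together, and of Syt4, by treatment, in Control (dark grey) and CBP-ifKO (red). Points are single animals and lines group means, on axes that start at 0. The 2 Control PTZ45 libraries of Syt4 (2661 and 2621) lie above all other Control libraries, while Syn1 ranges from 573 to 953 within CBP-ifKO PTZ45.

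A wider list of 60 other presynaptic genes (SNARE recycling, vesicle ATPase, endocytosis and further synaptotagmins) was compared in the same fit. Of the 59 tested, 18 were lower and 1 higher, with a median log2 fold change of −0.08, against 11.5% lower and 7.76% higher over all genes tested and 16.6% and 10.6% at 100 normalized counts or more. The lower genes with the smallest adjusted p were Nsf, the ATPase that takes spent SNARE complexes apart (−0.28, SE 0.03, adjusted p = 1.06e-22), and Napb, the SNAP adaptor that brings it there (−0.21, SE 0.03, adjusted p = 9.69e-11). They were followed by Syt13 (−0.27, adjusted p = 2.26e-07), Atp6v1a, a subunit of the proton pump that energizes vesicle filling (−0.21, adjusted p = 4.35e-07), the active zone protein Erc2 (−0.15, adjusted p = 3.14e-06) and the vesicle protein synaptogyrin 1, Syngr1 (−0.23, adjusted p = 9.1e-06). Atp6v0a1, another subunit of the same pump, was the 1 higher gene (0.13, adjusted p = 0.0156).

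Markers of hippocampal cell types were compared in the same fit, against the same 11.5% lower and 7.76% higher over all genes tested. Of 7 markers of CA1 pyramidal cells 6 were lower, with a median log2 fold change of −0.44, and their summed normalized count was 6381 to 7073 in Control and 4607 to 5306 in CBP-ifKO. Of 8 CA3 and CA2 markers 4 were lower (median −0.31, sums 4482 to 5257 and 3611 to 4020.2). Of 8 dentate granule cell markers 5 were lower and 1 higher (sums 8022 to 9489 and 8091 to 8703). The 10 general excitatory markers had 5 lower and 1 higher, with overlapping sums of 40656 to 50569.6 and 42049 to 51961. Of 10 interneuron markers 3 were lower, with sums of 14740.4 to 15158 in Control and 12648 to 14252 in CBP-ifKO. The 3, named after their values were seen, were Gad1, Sst and Cck, and pyramidal cells also express Cck. Cck went from 1776 ± 117 to 1151 ± 205 normalized counts (log2 fold change −0.62, adjusted p = 3.69e-11), a large part of the difference in the sums, while Gad2, Lhx6, Npy and Erbb4 were among the 7 that did not pass. Of 8 astrocyte markers 3 were lower (sums 64424 to 72901 and 60865 to 69172), and of 9 oligodendrocyte markers 1, a share near that of all genes. The sums of 8 microglial markers overlapped (3050.1 to 3560.0 and 2618 to 3676). No gene of these lists was at 0 in all libraries of a genotype. The sums of 7 thalamic markers, whose neurons use Slc17a6, were 803 to 1016 in Control and 705 to 851 in CBP-ifKO, and those of 6 markers of cortical layer 6b, which expresses Cplx3, 834 to 1025 and 728 to 919. The part of cell composition and dissection in the members' differences was not tested.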

How the data were processed

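Hippocampal total RNA of 17 mice was sequenced as single-end reads. Per the study's methods the authors trimmed reads with Trim Galore 0.6.4, checked them with FastQC 0.11.8, aligned them with STAR 2.6.1 to GRCm38, kept mapping quality above 10 and counted exons with Rsubread on the Ensembl release 99 annotation; they tested with DESeq2 1.30.1. The table the authors deposited holds raw counts. Of its count columns 1 matched no sample and was not used. Gene identifiers (99.6% matched) took symbols, positions and GC content from GENCODE M21.

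Each comparison was fitted on the whole table of the libraries compared, for the genes with at least 1 count in those libraries (39260 genes over all 17 libraries). The test was the two-sided Wald test of DESeq2 1.42.0 in R 4.3.3, with Benjamini-Hochberg adjustment after independent filtering. Genotype over all treatments had treatment as a term. Members whose adjusted p the filtering left empty count as not tested. Mean values are given with SD over animals, and intervals are 95% Wald intervals. Levels per kilobase divide normalized counts by exonic length. Paralogue ratios used normalized counts plus a pseudocount of 1. Counts are precise to counting error only, and members with few counts, such as Cplx3 and Doc2a, are the least precise. Replicates are separate animals.

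The members and lists were chosen with earlier results of these data known. Members called in any comparison are given with full values for at least 1 comparison, the others by ranges or intervals, and of the other presynaptic genes those 6 lower with the smallest adjusted p are named beside the 1 that was higher. Alternatives were edgeR 4.0.16 (quasi-likelihood test), TMM size factors, a filter of 10 counts in 2 libraries, GC correction by loess (span 0.5), a replicate block, a lane term, 1 fit of all groups and leaving out each library. Leaving out the libraries with choroid plexus genes (summed count above 10000) and the paralogue ratios were added after seeing the data. The fits were tested on simulated data.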

Additional observations from a re-analysis of the deposited data

Results flagged for a closer look

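Unc13b, a Munc13 priming factor, differed in opposite directions between PTZ0 and PTZ45 in the 2 genotypes. Control PTZ0 was in lane 3 and Control PTZ45 in lane 4, while both CBP-ifKO groups were in lane 5. In Control mice the last PTZ injection and lane therefore cannot be told apart. Control PTZ45 libraries (1925 and 1955 normalized counts) were all above Control PTZ0 libraries (1871, 1778 and 1729), and CBP-ifKO PTZ45 libraries (1729.6, 1687 and 1685) were all below CBP-ifKO PTZ0 libraries (1774, 1786 and 1892). The log2 change in CBP-ifKO minus that in Control was −0.21. This difference was not tested for PTZ45 against PTZ0, and neither change passed on its own (log2 fold change 0.11, adjusted p = 0.784 in Control, and −0.10, adjusted p = 1.0 in CBP-ifKO, DESeq2). In the interaction of genotype with PTZ45 against Sal, which uses the same PTZ45 libraries, Unc13b also had −0.21 (SE 0.11), with an unadjusted p of 0.0457 and an adjusted p of 1.0. There the lane differed between Sal and PTZ45 in both genotypes.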

How the results depend on the processing

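Over all treatments 18 members were called. The number was 18 or 19 with edgeR, TMM size factors, the filter, GC correction and the replicate block, 12 without the libraries with choroid plexus genes, 1 with lane as a term, and 17 to 19 without any single library. With the lane term Syt5 (0.0050), Vamp1 (0.039) and Unc13c (0.11) turned above 0. With edgeR Syt1 was not called, and Cplx1 and Slc17a6 were. In Sal 6 members were called: 0 without the choroid plexus libraries and 2 to 8 without single libraries. In PTZ0 12 were called: 1 without the choroid plexus libraries and 2 to 13 without single libraries. In PTZ45 4 were called: 9 with edgeR, 11 in 1 fit of all libraries, 0 without the choroid plexus libraries and 0 to 4 without single libraries. Within lane 4, 7 were called, 12 in 1 fit of all libraries and 0 to 7 without single libraries. For PTZ45 against Sal in Control 1 was called, 3 with edgeR, 0 with TMM size factors, the filter or GC correction, and 0 to 1 without single libraries. For PTZ45 against PTZ0 in Control 3 were called, 0 in 1 fit of all libraries and 0 to 4 without single libraries. For PTZ45 against Sal and against PTZ0 in CBP-ifKO 0 were called and 1 with edgeR each, and 0 without any single library. For PTZ0 against Sal in both genotypes and for the interaction 0 were called in every alternative run. Apart from the fewer libraries in some of these fits, the cause of these changes was not tested. Fewer libraries and the lane term both widen the error, and members with few counts limit what a fit can call.

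Replicate numbers are shared across groups, but the labels do not say that they pair animals. Control PTZ45 replicate 2 carries the number 3 in the name of its count column and was treated as number 2 here. Deviations from group means over 13041 genes correlated by −0.52 to 0.53 between same-numbered libraries (median −0.06) and by −0.51 to 0.72 between others (median 0.03), and 7 of 17 libraries correlated best with their own number. With the replicate block 18 members were called over all treatments, 3 in Sal, 8 in PTZ0, 0 in PTZ45, 0 within lane 4, 0 for PTZ45 against Sal in Control, 1 for the same in CBP-ifKO and 0 for PTZ45 against PTZ0 in Control. With the replicate block and GC correction together the numbers were 1 in Sal, 4 in PTZ0, 0 in PTZ45, 2 within lane 4, 0 for PTZ45 against Sal in Control and in CBP-ifKO, and 1 for PTZ45 against PTZ0 in Control.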
